A study of Macaca mulatta with 9 samples.

Results

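The glycolytic enzymes PFKP, PGK1, ENO1, ENO2 and LDHA were followed in small antral follicles of rhesus macaques, as 5 genes chosen by name. Their probe sets are those whose annotated gene symbol is exactly that of a member, which gave 7 of the 52865 probe sets on the array, for 4 of the 5 genes. PFKP, ENO2 and LDHA had 1 probe set each and ENO1 had 4. The 1 probe set listed for PGK1 also carried the symbols of other genes, so PGK1 has no value here, and a further ENO1 probe set was left aside for the same reason. Of the 7 probe sets, 6 passed the filter on low values and were tested. The exception was the fourth ENO1 probe set, whose signal lay between 0.624 and 6.50 on all 9 arrays, under the filter's signal of 21.2.

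The samples came from ovaries of young adult females at or near menses, in the early follicular phase. There were 3 groups of 3 biological replicates, each on 1 array. Controls ate a standard diet, the WSD group ate a western-style diet, and the WSD+T group ate the western-style diet and also had chronically raised androgen. Follicles with a clear antrum, presumed healthy, were pooled per female and ovary, with 3 ovaries a group, and lysed whole, so granulosa cells, follicle wall and cumulus-oocyte complex were measured together. Androgen was raised only on top of the WSD, never on the standard diet. The RNA was amplified and labelled with biotin before hybridization. In such bulk samples, fewer cells of a type and less RNA per cell cannot be told apart.

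Glycolysis breaks glucose down to pyruvate in the cytosol, and lactate dehydrogenase interconverts pyruvate and lactate. In the ovarian follicle, granulosa and cumulus cells carry out most of this breakdown and pass pyruvate and lactate to the oocyte, which uses glucose itself only poorly. PFKP, the platelet-type phosphofructokinase, catalyses the committing step of the pathway. The enolases ENO1, the widely expressed form, and ENO2, the form best known from neurons, make phosphoenolpyruvate. LDHA is the lactate dehydrogenase subunit linked to lactate production.

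Each array had been scaled to the same trimmed mean, 200.01, and its median signal lay between 15.9 (WSD replicate 3) and 23.7 (control replicate 3). The 3'/5' ratio of the GAPDH control probe sets, a sign of RNA quality, was 1.30 to 1.55 in control, 1.45 to 1.58 in WSD and 1.56 to 1.74 in WSD+T. That of the actin control probe sets was 2.52 to 2.897 in control, 2.20 to 2.99 in WSD and 2.49 to 2.97 in WSD+T. The mean within-group variance of log2 values over all tested probe sets was 0.152 in control, 0.33 in WSD and 0.0411 in WSD+T, while the model uses 1 common spread per probe set. Of the 9 granulosa cell markers, 7 had a probe set and all 7 passed the filter, with a summed signal of 12000.4 to 16250.5 in control, 8467 to 12499.5 in WSD and 10059.7 to 11548 in WSD+T. The macrophage and myeloid markers, 9 of 11 with a probe set and all but ITGAM above the filter, summed to 1608 to 8941 in control, 843 (replicate 3) to 21265 (replicate 2) in WSD, and 13357 to 15213 in WSD+T. Fold changes below are log2 differences of signal plus 16, with their standard error (SE), and adjusted p values are from limma over all 26383 tested probe sets.

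WSD and control follicles differ by diet alone. Of the 4 measured members, ENO2 alone was called: it rose 1.51-fold in WSD follicles, while in WSD+T follicles it stood at 1.02 times control and was not called. PFKP, ENO1 and LDHA did not pass the test in any comparison, which does not show that they stayed the same. ENO2 thus accounted for 1 call among 4 genes, against 15.4% of all 10002 tested genes called in this comparison, 4.74% as higher (14.5% of all probe sets).

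ENO2 signals in control replicates 1 to 3 were 1192, 1261 and 1095. In WSD they were 1836, 1821 and 1728, and in WSD+T 1179, 1161 and 1284. All 3 WSD arrays lay above all 6 others, while control and WSD+T overlapped. Of all genes, 10.3% had every WSD array above control. The means were 1183 ± 83.7 (SD, n = 3) in control, 1795 ± 58.4 in WSD and 1208 ± 66.4 in WSD+T. The log2 fold change of WSD over control was 0.60 (SE 0.12, 95% interval 0.32 to 0.88, limma's adjusted p = 0.0167). In the ranking of all tested probe sets by p, ENO2 stood at place 1590. The call was lost without control replicate 3 (limma's adjusted p = 0.0502) and with replicate number as a block (0.0539). It was also lost with array weights per group (0.0677) and in a fit of the 6 control and WSD arrays alone (0.0829). Over all 20 alternatives the adjusted p ran from 0.00791 to 0.0829.

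**Figure D1:**
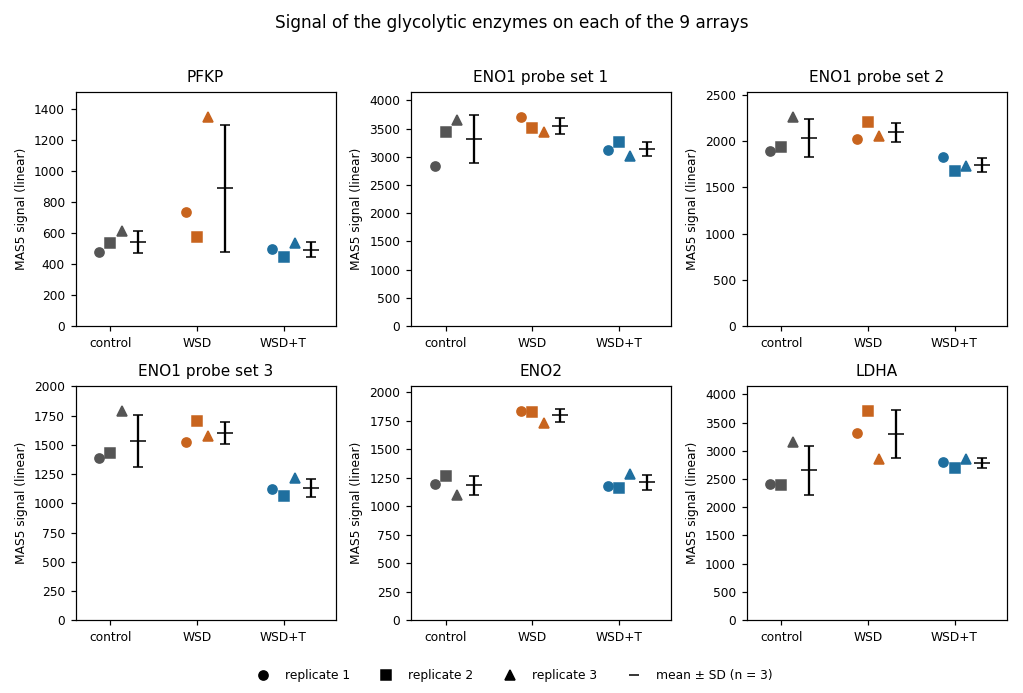
Linear MAS5 signal (vertical axes, from 0) of the 6 tested probe sets of PFKP, ENO1, ENO2 and LDHA on each array, by group (horizontal axis), with replicates 1 to 3 as circle, square and triangle and the mean ± SD (n = 3) as a bar beside them. ENO2 lies between 1728 and 1836 on the WSD arrays and at or below 1284 on the 6 others, and PFKP has 1 high WSD array at 1351.

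PFKP had a mean log2 fold change of similar size to that of ENO2, but 1 array carried most of it. Its signals were 477, 538 and 616 in control, 737, 576 and 1351 in WSD, and 498, 443 and 538 in WSD+T. WSD replicate 3 was 2.35 times WSD replicate 2, which itself lay within the range of the control arrays. The group means were 544 ± 69.7 in control, 888 ± 409 in WSD and 493 ± 47.7 in WSD+T. The log2 fold change of WSD over control was 0.61 (SE 0.28, 95% interval -0.04 to 1.25, adjusted p = 0.182), and it was 0.26 without WSD replicate 3. That array also had the lowest median signal of the 9 and the lowest myeloid sum, whose part in the PFKP value was not tested.

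ENO1 was measured by 3 tested probe sets, numbered by falling mean signal. Probe set 1 read 2839.8, 3445 and 3661 in control, 3712, 3505 and 3442 in WSD, and 3117, 3272 and 3021 in WSD+T. Control and WSD overlapped, with a log2 fold change of 0.11 (SE 0.14, 95% interval -0.21 to 0.42, adjusted p = 0.629). The fold changes of probe sets 2 and 3 were 0.05 and 0.07 (adjusted p = 0.829 and 0.788), and their upper interval bounds were 0.34 and 0.40. A rise of ENO1 after WSD as large as the 0.60 measured for ENO2 lay outside the interval of each of the 3 probe sets. Within arrays, where scaling cancels, the 2 enolases were also set against each other, as a description without a test and for ENO1 probe set 1 only. The log2 ratio of ENO2 to ENO1 probe set 1, set to a mean of 0 in control, was 0.46 to 0.53 on the WSD arrays, -0.26 to 0.23 on the control arrays and -0.01 to 0.24 on the WSD+T arrays.

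LDHA signals were 2404, 2401 and 3152 in control, 3318, 3710.5 and 2855 in WSD, and 2805, 2689 and 2849.6 in WSD+T. Control replicate 3 was higher than WSD replicate 3, so the groups overlapped. The means were 2652 ± 433 in control, 3295 ± 428 in WSD and 2781 ± 83.1 in WSD+T. The log2 fold change of WSD over control was 0.32 (SE 0.16, 95% interval -0.05 to 0.68, adjusted p = 0.218), with values between 0.23 and 0.44 when 1 array was left out. LDHA was therefore not shown to differ, and its interval includes a rise of the size found for ENO2. The median log2 fold change of the 4 genes was 0.46, against -0.08 over all tested genes.

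**Figure D2:**
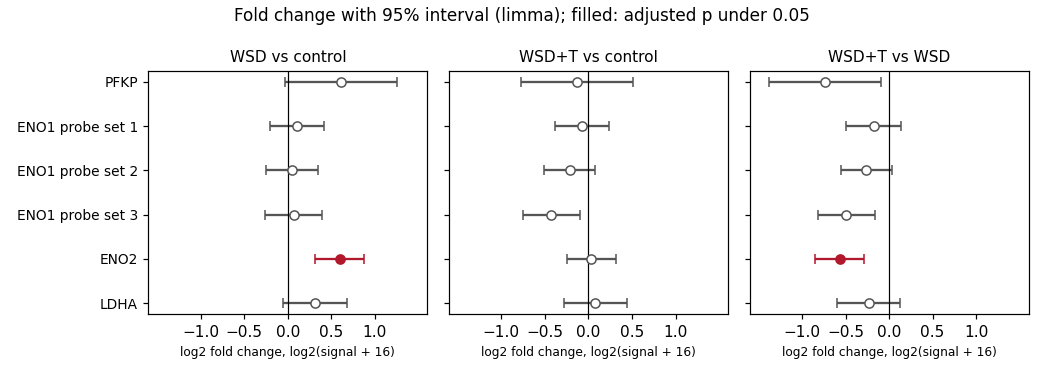
Log2 fold changes (horizontal axes, on log2 of signal plus 16) with 95% intervals from limma for the 6 tested probe sets (rows) in the 3 comparisons (panels), filled where the adjusted p was under 0.05. ENO2 is the only filled point, at 0.60 in WSD vs control and at -0.57 in WSD+T vs WSD.

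Diet and androgen together are seen in WSD+T against control. None of the 4 genes was called by limma, in a comparison where 2.35% of all tested genes were (0.62% higher, 1.73% lower) and 1.97% of all probe sets. Before adjustment, limma's p was under 0.05 for 1 of the 6 probe sets, ENO1 probe set 3. At 1 probe set a gene, 20.3% of all tested genes passed that threshold. The log2 fold change of ENO2 was 0.03 (95% interval -0.25 to 0.31, adjusted p = 0.924), that of LDHA 0.08 (-0.29 to 0.45, adjusted p = 0.837) and that of PFKP -0.13 (-0.77 to 0.51, adjusted p = 0.846).

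The ENO1 probe sets disagreed in size here. Probe set 1 had -0.07 (adjusted p = 0.825), probe set 2 had -0.21 (0.403) and probe set 3 had -0.43 (SE 0.15, adjusted p = 0.168). Probe set 3 read 1385, 1432 and 1793 in control and 1122, 1063 and 1218 in WSD+T, with no overlap. Probe set 2 read 1889.5, 1938 and 2263 in control and 1827, 1676 and 1731 in WSD+T, also without overlap. Such separation was common, at 36.8% of all tested probe sets in this comparison. Over the 9 arrays, probe sets 2 and 3 followed each other closely (Pearson's r = 0.96, Spearman's rho = 0.98), while probe set 1 had r = 0.67 and 0.63 with them. The GAPDH 3'/5' ratios of WSD+T (1.56 to 1.74) lay above those of control but overlapped those of WSD (1.45 to 1.58). The actin ratios overlapped between all groups. The part of RNA quality in the disagreement between the ENO1 probe sets was not tested.

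What androgen added to the diet is seen in WSD+T against WSD. All 4 genes had lower means in WSD+T, and for each of them the 3 WSD+T arrays lay below the 3 WSD arrays. A separation in that direction was found for 10.6% of all tested genes. The members were chosen with earlier results of these data known, and all 4 share the same 3 WSD arrays. Their count beside that share is therefore a description only. For LDHA the gap was narrow, with 2855 as the lowest WSD signal and 2849.6 as the highest WSD+T signal. Under quantile normalization the separation held for 3 of the 4 genes, against 12% of all genes, and under cyclic loess for 2, PFKP and ENO2, against 13.4%. All 4 means stayed lower under both.

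ENO2 alone passed the test, where 2.85% of all tested genes were called and 0.79% as lower (2.99% of all probe sets). Its log2 fold change was -0.57 (SE 0.12, 95% interval -0.85 to -0.29, limma's adjusted p = 0.0490). This call sat at the threshold: it held in 4 of 20 alternatives, whose adjusted p ran from 0.0262 to 0.196. Of the 9 fits that left out an array, only the fit without WSD replicate 3 kept it (0.0457). For PFKP the log2 fold change was -0.74 (SE 0.28, adjusted p = 0.180), and -0.39 without WSD replicate 3. For ENO1 probe sets 1 to 3 it was -0.18, -0.26 and -0.49 (adjusted p = 0.518, 0.293 and 0.0997), and for LDHA -0.24 (adjusted p = 0.460). The comparisons share arrays, so the rise after WSD and the lower level in WSD+T both rest on the same 3 WSD arrays. An F test over the 3 groups also called ENO2 (adjusted p = 0.0264), with 11.7% of all probe sets called, and none of the 5 other probe sets (0.0880 to 0.604).

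**Figure D3:**
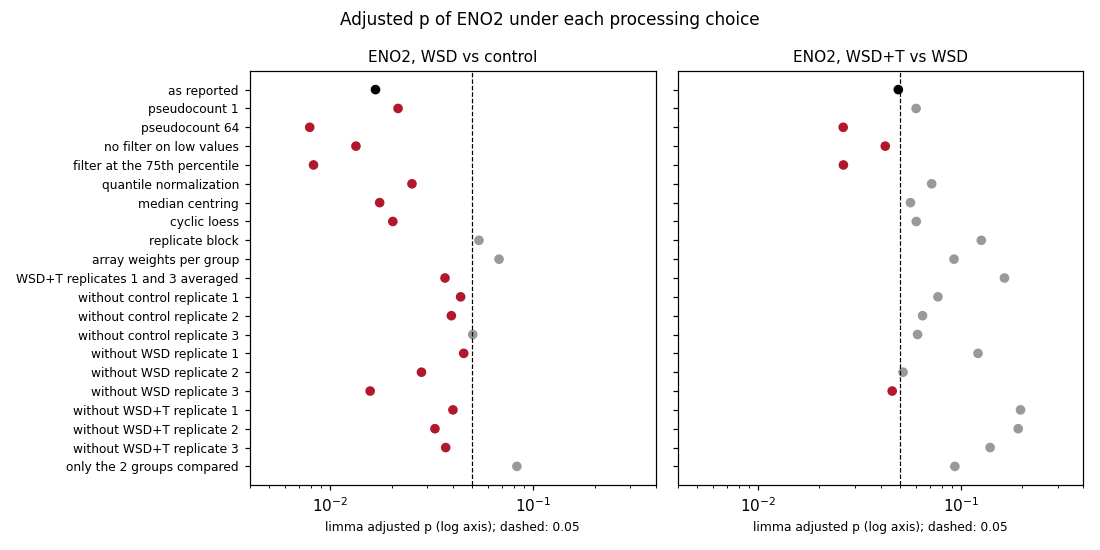
Adjusted p of ENO2 from limma (horizontal axes, log scale, dashed line at 0.05) under each processing choice (rows) in WSD vs control and in WSD+T vs WSD, black for the reported setting, red for alternatives under 0.05 and grey for the others. In WSD vs control 16 of 20 alternatives passed, and in WSD+T vs WSD 4 of 20.

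Ordered by mean level, ENO2 stood lowest in control, next in WSD+T and highest in WSD, and the first 2 did not differ beyond their spread. ENO1 had the order WSD+T, control, WSD in each of its 3 tested probe sets, with no neighbours called different. PFKP followed the same order as ENO1, and LDHA that of ENO2. The WSD+T arrays varied least for PFKP, ENO1 probe set 2 and LDHA, with log2 SDs of 0.14, 0.06 and 0.04. For LDHA the corresponding SDs were 0.22 in control and 0.19 in WSD. ENO2 varied little in every group, with SDs of 0.10 in control, 0.05 in WSD and 0.08 in WSD+T.

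As a description over the 9 arrays, the members followed each other only loosely. Pearson's r was 0.63 between PFKP and ENO2 (Spearman's rho 0.57), 0.62 between ENO2 and LDHA (0.48), 0.47 between ENO2 and ENO1 probe set 1 (0.30), and 0.26 between PFKP and LDHA (0.73). These values share arrays, groups and scaling. The genes whose log2 values were most like those of ENO2 among 10001 other genes were AQP3, a water and glycerol channel (r = 0.99, rho = 0.95), CA13, a carbonic anhydrase (r = 0.97, rho = 0.92), and CSNK1A1, casein kinase 1 alpha (r = 0.96, rho = 0.75). Without WSD replicates 1 and 2, which lay farthest from the median of ENO2, these r values were 0.98, 0.93 and 0.93. WSD replicate 3, whose ENO2 signal of 1728 also lay above all control and WSD+T arrays, was kept. These values therefore cannot show whether the likeness goes beyond the shift of the WSD group. In all, 91 genes had r above 0.9 with ENO2, against 36 with PFKP, 22 with LDHA and 1 with ENO1.

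For LDHA the nearest genes were ZNF385A, LPGAT1 and BASP1 (r = 0.96, 0.96 and 0.95, rho = 0.98, 0.97 and 0.93, and r = 0.91, 0.90 and 0.91 without WSD replicate 2 and control replicate 2). For ENO1 probe set 1 they were CHTF18, a cohesion and replication factor, P4HB, protein disulfide isomerase, and the filamin FLNC (r = 0.94, 0.90 and 0.89, rho = 0.80, 0.93 and 0.90, and r = 0.87, 0.89 and 0.78 without control replicate 1 and WSD+T replicate 3). For PFKP they were ZMAT2, SEH1L and ZBTB5 (r = 0.96, 0.95 and 0.95, rho = 0.95, 0.68 and 0.78). Without WSD replicates 3 and 1 the values of the last 2 became 0.46 and 0.51, so that likeness rested on those arrays, while ZMAT2 kept 0.94.

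The remaining steps of the pathway were described from a list of 21 other glycolytic enzymes, of which 11 were tested. None of the 11 was called by limma in any comparison. At an unadjusted p under 0.05 there were 0 in WSD vs control, 3 in WSD+T vs control and 1 in WSD+T vs WSD, where 31.7%, 20.3% and 20.7% of all genes passed that threshold. Their median log2 fold change was -0.07 in WSD vs control, -0.24 in WSD+T vs control and -0.16 in WSD+T vs WSD, against medians of -0.08, -0.01 and 0.09 over all genes. The hexokinases HK1 and HK2, which trap glucose in the cell, had -0.28 and -0.06 in WSD vs control (adjusted p = 0.190 and 0.833). HK1 was the 1 gene of the list whose WSD arrays all lay below control, as they did for 22% of all genes. The liver-type phosphofructokinase PFKL, which shares its reaction with PFKP, had -0.07 (0.815). The pyruvate kinase PKM had 0.02 (0.962) and GAPDH, which makes the substrate of PGK1, -0.12 (0.660).

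For 6 of the 11, all WSD+T arrays lay below all control arrays: HK1, PFKL, ALDOC, TPI1, GAPDH and PKM. Separation in that direction was found for 19.8% of all genes, and HK3 was separated in the other direction, like 20.5% of all genes. Against WSD, TPI1 and PKM were lower without overlap in WSD+T and PGAM2 was higher, where 10.6% and 18.2% of all genes were. GAPDH read 2040.1, 2091 and 2288 in control, 2047, 2378 and 1561 in WSD, and 1562, 1484 and 1489.6 in WSD+T (log2 fold change of WSD+T over control -0.50, SE 0.17, adjusted p = 0.165). PKM read 1605, 1897 and 2129.7 in control, 1857, 2494 and 1454 in WSD, and 1371, 1266.5 and 1445 in WSD+T (-0.45, adjusted p = 0.278). In both genes WSD replicate 3 was the lowest WSD array, whereas in PFKP it was the highest. The aldolase ALDOC had the lowest value of the list (-1.42, SE 0.43, adjusted p = 0.131). No probe set carried LDHB alone.

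Over all 8 related lists, 55 genes were tested. In WSD vs control 3 were called higher and 1 lower, against 4.74% and 10.7% of all genes, and limma's unadjusted p was under 0.05 for 10. Between WSD+T and control none of the 55 was called, and 9 had an unadjusted p under 0.05. Between WSD+T and WSD 1 was called lower and none higher, against 0.79% and 2.06% of all genes, and 6 had an unadjusted p under 0.05. For 1 probe set a gene, those unadjusted counts stand against the same 31.7%, 20.3% and 20.7% of all genes. The members of these lists that were called are TIGAR, PDP1, DDIT4 and HIF1AN.

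**Figure D4:**
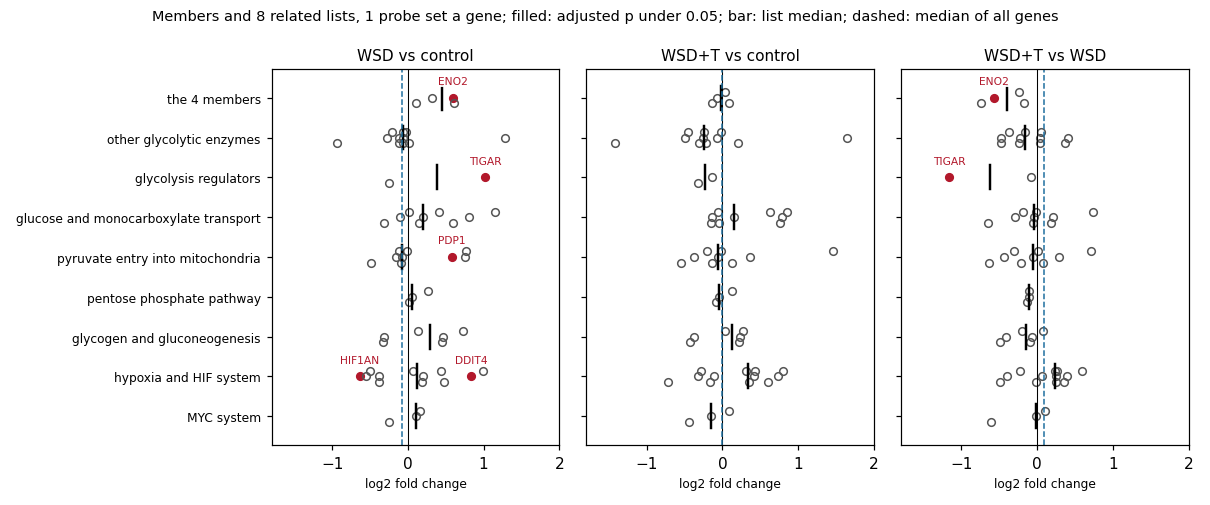
Log2 fold changes (horizontal axes) of the 4 members and of the 55 tested genes of 8 related lists (rows), 1 probe set a gene, in the 3 comparisons (panels), filled and named where the adjusted p was under 0.05. Black bars mark each list's median and the dashed line the median of all 10002 genes, -0.08, -0.01 and 0.09 from left to right.

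Among the regulators of glycolysis, 2 of 5 genes were tested. TIGAR, a phosphatase that lowers fructose-2,6-bisphosphate and so slows phosphofructokinase, rose in WSD and was lower in WSD+T than in WSD. Its signals were 78.9, 98.2 and 88.8 in control, 243, 249 and 122 in WSD, and 89.5, 70.3 and 76.5 in WSD+T. The log2 fold change was 1.02 in WSD vs control (SE 0.25, adjusted p = 0.0295) and -1.16 in WSD+T vs WSD (adjusted p = 0.0476). In leave-one-array-out fits the first held in 2 of 9 (highest adjusted p = 0.0856, without WSD replicate 1), and the other in 1 of 9, without WSD replicate 3 (highest 0.184, without WSD+T replicate 2). Over all 19 alternatives the first held in 8 and the other in 5. The first was also lost with replicate number as a block (limma's adjusted p = 0.0525) and with array weights per group (0.0582). So it was with WSD+T replicates 1 and 3 averaged (0.0522) and in the 2 groups alone (0.0957). PFKFB3, which makes fructose-2,6-bisphosphate, had -0.24 in WSD vs control (adjusted p = 0.604).

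Of 9 tested genes at the entry of pyruvate into mitochondria, 1 was called, in WSD vs control, where 15.4% of all tested genes were. PDP1, the phosphatase that activates pyruvate dehydrogenase, read 1129.6, 1137 and 1221 in control, 1744, 1628 and 1861 in WSD, and 1531, 1392 and 1574 in WSD+T. It rose in WSD (0.58, SE 0.12, adjusted p = 0.0196), as did its other tested probe set (0.83, adjusted p = 0.0127). The call of the first was lost without control replicate 1 or 2 (limma's adjusted p = 0.0558 and 0.0611). It was also lost with replicate number as a block (0.0503), with array weights per group (0.0776) and in the 2 groups alone (0.0880). The kinases that inhibit the same enzyme, PDK1, PDK2, PDK3 and PDK4, had -0.07, -0.01, -0.16 and 0.75 (adjusted p = 0.865, 0.963, 0.528 and 0.513).

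In the hypoxia and HIF list, 12 of 20 genes were tested. In WSD vs control 1 was called higher and 1 lower, against 4.74% and 10.7% of all tested genes (15.4% in either direction). None was called in the other comparisons. DDIT4, a stress-induced inhibitor of mTOR signalling, rose from 822 ± 97.4 to 1476 ± 84.1 (0.84, SE 0.15, adjusted p = 0.0114) and was 1053 ± 152 in WSD+T. It passed in all 9 fits that left out 1 array, but not with array weights per group (limma's adjusted p = 0.0667) or in the 2 groups alone (0.0510). HIF1AN, the asparagine hydroxylase that inhibits HIF, fell from 384 ± 38.8 to 241 ± 5.56 (-0.63, SE 0.13, adjusted p = 0.0163) and was 313 ± 18.9 in WSD+T. It did not pass without control replicate 2 (0.0546), under median centring (0.0631), with array weights per group (0.0667) or in the 2 groups alone (0.0797). HIF1A itself had no probe set of its own. CA9, a HIF target, had -0.50 (adjusted p = 0.214) and ADM, another, 0.48 (adjusted p = 0.374).

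None of 9 tested glucose and monocarboxylate transport genes was called by limma in any comparison, and 1 had an unadjusted p under 0.05 in each of them. The glucose transporter SLC2A1 read 173, 330 and 110.1 in control, 299, 244 and 325 in WSD, and 147, 172 and 225 in WSD+T (0.59 in WSD vs control, adjusted p = 0.267), with a wide spread in control. SLC16A3, an exporter of lactate, had 1.15 (adjusted p = 0.0971). The 3 tested genes of the pentose phosphate pathway lay between 0.02 and 0.26 in WSD vs control, and the 6 of glycogen and gluconeogenesis between -0.33 and 0.72, none called. MYC, a transcription factor that drives glycolytic genes in many cells, had 0.16 (adjusted p = 0.731).

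**Figure D5:**
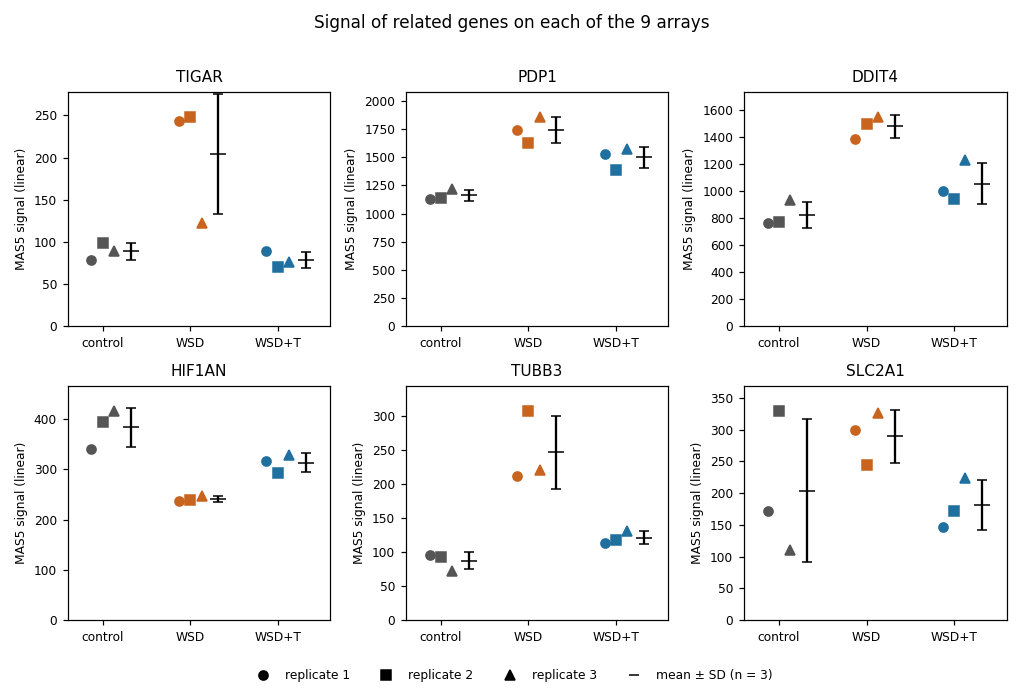
Linear MAS5 signal (vertical axes, from 0) of TIGAR, PDP1, DDIT4, HIF1AN, the neuronal tubulin TUBB3 and SLC2A1 on each array, by group (horizontal axis), with replicates 1 to 3 as circle, square and triangle and the mean ± SD (n = 3) as a bar. HIF1AN lies between 238 and 248 on the WSD arrays and at or above 292 on the others, and TUBB3 is at or above 211 in WSD and at or below 131 elsewhere.

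Since ENO2 is best known from neurons, markers of neurons and glia were set beside it. Of 7 genes on that list 3 had a probe set and 1, the neuronal tubulin TUBB3, passed the filter. ELAVL4 and S100B stayed between 5.09 and 17.9 on all arrays, under the filter's signal. The summed signal of the list, most of it from TUBB3 on every array, was 102 to 126 in control, 229 to 341 in WSD and 136 to 154 in WSD+T. TUBB3 moved with ENO2: it rose from 87.1 ± 12.5 in control to 246 ± 53.3 in WSD (1.34, SE 0.18, adjusted p = 0.00434) and was 121 ± 9.24 in WSD+T (-0.92 against WSD, adjusted p = 0.0369). TUBB3 is not restricted to neurons, and the part of neuronal RNA in the ENO2 value was not tested. On WSD replicates 1 to 3, ENO2 was at 1836, 1821 and 1728, and the myeloid sum was 14312, 21265 and 843. The part of myeloid RNA in the ENO2 value was not tested either.

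Of the granulosa markers, INHBA was called higher and INHA lower in WSD vs control, and INHA lower in WSD+T vs control. Of 7 tested oocyte markers 1 was called higher in each of these comparisons, ZP4 and FIGLA. Marker calls stand against 4.74% of all tested genes called higher and 10.7% lower in WSD vs control. The shares were 0.62% and 1.73% in WSD+T vs control, and 2.06% and 0.79% in WSD+T vs WSD. The summed oocyte signal was 527 to 1052 in control, 1152 to 1549 in WSD and 1195 to 1395 in WSD+T. The theca marker CYP17A1 was called lower in WSD vs control, among 2 tested. Of 6 tested stroma and smooth muscle markers, TAGLN was called higher and LUM lower in WSD vs control, and LUM higher in WSD+T vs WSD. The mean centred log2 level of that list was -0.63 to -0.11 on the WSD arrays, below the control (-0.02 to 0.28) and WSD+T arrays (0.14 to 0.45). Its summed signal overlapped between WSD and both other groups, at 8589 to 9956 in control, 7779 to 10946 in WSD and 10091.8 to 11819 in WSD+T. Other lists separated by mean centred level too. The granulosa list was at 0.39 to 0.83 in control, above WSD (-0.79 to 0.27) and WSD+T (-0.64 to -0.42). The neuron and glia list was at 0.04 to 0.55 in WSD, above control (-0.37 to 0.0038) and WSD+T (-0.15 to -0.0032). Of its measured genes only TUBB3 passed the filter. ELAVL4 and S100B, under the filter, had lower mean signals in WSD (10.4 and 10.8) than in control (12.1 and 11.8). The red blood cell list was at -0.35 to -0.06 in WSD+T, below control (0.02 to 0.26) and WSD (0.04 to 0.08). Its marker HBB was called lower in WSD+T against both other groups, among 2 tested. By mean centred level, the theca list was lower in WSD+T than in control without overlap. The oocyte, endothelial and myeloid lists were higher in WSD+T than in control without overlap. No endothelial or myeloid marker was called, which does not show that their levels stayed the same. The summed endothelial signal was 1016 to 1595 in control, 493 to 3644 in WSD and 1842 to 2132 in WSD+T. Both the endothelial and the myeloid sum lay higher in WSD+T than in control without overlap. The part of these markers in the values of the glycolytic enzymes was not tested.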

How the data were processed

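The deposited table holds a linear signal intensity for each probe set of 1-colour Affymetrix arrays, made with MAS5 per the submitters' processing notes; version, detection calls and genome build are not given in the sources used here. The authors had scaled every array to 1 trimmed mean. Symbols came from the array's annotation, and all 4 measured members had the same symbol in a RefSeq table matched by Entrez ID. The 99 control probe sets were left out. Values were analysed as log2(signal + 16), which understates fold changes of low signals. Probe sets with a mean at or above the median were tested (26383). The 9 arrays were fitted together in limma 3.58.1 (R 4.3.3; lmFit and eBayes, 6 residual and 2.69 prior degrees of freedom), with a coefficient for each group. The p values were adjusted by Benjamini-Hochberg per comparison, and called under 0.05. A gene in a list is represented by its tested probe set of highest mean. The code was tested on simulated data. Figures used matplotlib 3.10.9.

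Alternatives covered pseudocounts, filters, normalizations, a replicate block, array weights, the samples fitted and leaving out each array. Array weights per group and the averaging of WSD+T replicates 1 and 3 were known from earlier work on these data. Members and lists were chosen with earlier results of these data known. Named were the members, up to 4 called genes per list, HIF1A, MYC, GAPDH, LDHB, PKM and SLC2A1 whatever their values, and the 3 genes most correlated with each member. TUBB3, other list genes that did not pass and called cell markers are named with their values already known. The labels give no pairing of samples by replicate number. Of 9 same-numbered pairs, 4 had residual correlations above 0.1 (range -0.30 to 0.19), which cannot show whether samples were matched. No replicate pair was identical. WSD+T replicates 1 and 3 were closest, with an SD of log2 differences of 0.21, against 0.32 and 0.32 for the other WSD+T pairs. The number of arrays limits the precision.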

Additional observations from a re-analysis of the deposited data

How the results depend on the processing

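No call of PFKP, LDHA or any of the 3 tested ENO1 probe sets appeared under the alternatives run; the lowest adjusted p of ENO1 was 0.0586, for probe set 3 in WSD+T vs control. For ENO2 in WSD vs control, 16 of 20 alternatives passed; the fold change was 0.60 but did not pass with array weights per group, in the fit of the 2 groups alone or with the replicate block (adjusted p = 0.0539), and it ran from 0.54 to 0.64 when 1 array was left out. For ENO2 in WSD+T vs WSD, it did not pass with a pseudocount of 1 (-0.57), quantile normalization (-0.49), median centring (-0.70), cyclic loess (-0.56), the replicate block (-0.57, adjusted p = 0.126), array weights (-0.57), WSD+T replicates 1 and 3 averaged (-0.58) or the 2 groups alone (-0.57), and leave-one-out values ran from -0.61 to -0.54. Thus 0 members were called in these fits instead of 1, and 0 to 1 in the leave-one-out fits. Values near 0 changed sign when 1 array was left out: ENO1 in WSD vs control (-5.8e-06 to 0.18), ENO1 in WSD+T vs control (-0.18 to 0.0032) and ENO2 in WSD+T vs control (-0.023 to 0.078). The fourth ENO1 probe set had -0.021 in WSD vs control, at signals near the floor.

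Of the 55 list genes, 4 were called in WSD vs control, but 2 with the replicate block, 0 with array weights or the 2 groups alone, and 1 to 12 when 1 array was left out, the latter without WSD replicate 3. In WSD+T vs control 0 were called, but 6 with array weights or the 2 groups alone and 0 to 1 in the leave-one-out fits. In WSD+T vs WSD 1 was called, but 0 with a pseudocount of 1, no filter, the stricter filter, the replicate block, array weights, averaged replicates or the 2 groups alone, and 0 to 1 in the leave-one-out fits.

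Over all probe sets, 3817 were called in WSD vs control. The count was 2398 with the stricter filter, 2220.0 with the replicate block, 1367 with array weights, 2544 with averaged replicates, 913 in the 2 groups alone, and 1735 to 6628 when 1 array was left out. In WSD+T vs control 520.0 were called, against 3 with the block, 3267 with weights, 0 with averaged replicates, 3245 in the 2 groups alone, and 0 to 1777 when 1 array was left out. In WSD+T vs WSD 789 were called, against 300.0 under median centring, 1 with the block, 186 with weights, 0 with averaged replicates, 9 in the 2 groups alone, and 0 to 1548 when 1 array was left out. Without WSD+T replicate 1 there were 0 calls in both comparisons of WSD+T, without WSD+T replicate 2 there were 123 against control and 0 against WSD, and without WSD+T replicate 3 there were 0 and 2. The cause of these shifts was not tested. Median centring moved the median of all genes in WSD vs control from -0.08 to 0.05 and the lower share of calls from 66.9% to 46.8%, and under it all 4 members lay above control without overlap in WSD, as did 15.3% of all genes. In WSD+T vs WSD the lower share was 31.7%, and 51.7%, 60% and 57.0% under quantile normalization, median centring and cyclic loess.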
